A study of Homo sapiens with 8 samples.

Results

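The genes described here are CLCA1, CLCA2 and CLCA4, the members of the chloride channel accessory family of the human genome that encode protein. They were taken from the deposited expression table by gene symbol, and each was represented by 1 feature, 3 of the 20219 distinct gene symbols tested. The cells were MIV-Luc, a luciferase-expressing form of MCF10CA1a, the metastatic human breast carcinoma line of the MCF10A progression series. They had been stably transduced either with a scrambled short hairpin (shSCR) or with a single hairpin against IL13Rα2 (shIL13Rα2), the high-affinity receptor of interleukin-13 that is regarded as a decoy. IL-13 was given to each cell line at 20 ng/ml over 16 h, beside a mock treatment, and 2 Affymetrix arrays were run for each of the 4 groups, 8 in all. The hairpin lowers the receptor transcript and does not delete the gene, only 1 hairpin was profiled, and the culture medium contained insulin, EGF and hydrocortisone in every group.

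CLCA proteins were first described as channels and are now known as secreted or membrane-bound proteins with a metalloprotease domain that cuts the protein itself. CLCA1 is released by goblet cells, stabilizes the calcium-activated chloride channel ANO1 at the cell surface, and is a classical target of IL-13 in the airway, where the cytokine acts through the transcription factor STAT6. CLCA2 is anchored in the membrane of epithelial cells, including those of the breast, binds integrin β4 and cell junction proteins, and is known as a target of p53 and p63. CLCA4 is best known from the intestine and is also found in mammary epithelium. A further gene of the locus, CLCA3P, is a pseudogene.

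The family was chosen by its symbols, but with CLCA2 selected on its measured difference between knockdown and shSCR cells without IL-13, for which the study lists it. The values of that contrast are therefore given as a description with no test, and so are those of other contrasts of CLCA2 that use the same arrays. Tests were made on the knockdown among IL-13-treated cells, a difference between other arrays, and on the IL-13 effect averaged over both constructs. In this balanced design the estimate of the latter is independent of the one that drew attention to CLCA2. The spread in these tests was estimated over all 8 arrays, including those on which CLCA2 was chosen. The p-values of CLCA2 are therefore not fully independent of its choice. For CLCA1 and CLCA4, the effect of IL-13 within each construct was tested as well. The arrays of a group were biological replicates by the study's methods, and p-values measure the spread between them.

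The genes lie in one cluster on human chromosome 1 and are read in the same direction. From the start of CLCA2 to the end of CLCA3P the reference holds 8 genes, the CLCA genes included. In the GRCh38.p14 assembly of RefSeq, CLCA2 spans chr1:86424171-86456553, CLCA1 spans chr1:86468927-86500259 and CLCA4 spans chr1:86547078-86580754, all on the plus strand. CLCA3P follows at chr1:86634276-86655376. The 250 bases before the annotated start of each gene are shown so that the promoter sequences of these neighbours can be read beside their values. Capitals mark matches to the motifs searched on both strands, which were TTCNNNNGAA (the spacing preferred by STAT6), TTCNNNGAA (the spacing of other STAT factors), TATAAA, which the core promoter factor TBP binds, and the p53-family decamer.
CLCA2, chr1:86423921-86424170, plus strand: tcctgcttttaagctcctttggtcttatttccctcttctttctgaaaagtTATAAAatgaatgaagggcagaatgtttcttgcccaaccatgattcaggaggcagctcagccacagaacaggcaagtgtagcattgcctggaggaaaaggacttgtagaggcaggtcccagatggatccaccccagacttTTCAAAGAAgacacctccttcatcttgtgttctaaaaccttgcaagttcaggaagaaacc
CLCA4, chr1:86546828-86547077, plus strand: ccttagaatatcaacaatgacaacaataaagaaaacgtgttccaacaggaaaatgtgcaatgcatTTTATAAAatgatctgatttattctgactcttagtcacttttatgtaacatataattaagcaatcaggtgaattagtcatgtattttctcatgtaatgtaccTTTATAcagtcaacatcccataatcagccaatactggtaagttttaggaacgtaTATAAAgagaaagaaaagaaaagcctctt
CLCA1, chr1:86468677-86468926, plus strand: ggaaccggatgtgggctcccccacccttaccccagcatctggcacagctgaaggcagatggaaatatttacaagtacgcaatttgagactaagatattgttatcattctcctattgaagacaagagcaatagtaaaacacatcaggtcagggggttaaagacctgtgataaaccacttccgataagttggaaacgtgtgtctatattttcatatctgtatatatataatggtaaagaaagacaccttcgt

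The CLCA2 window held 1 match to TTCNNNGAA, at positions -60 to -52 from the start, and 1 TATAAA at -200 to -195. The first match reads the same way on both strands. The CLCA4 window held TATAAA at -29 to -24 and again at -183 to -178, and on the other strand at -83 to -78 and at -185 to -180, the latter overlapping its neighbour. The CLCA1 window held no match to any of these motifs, and none of the 3 windows held TTCNNNNGAA or the p53-family decamer. Among 35116 promoter windows of the same length, 6.57% held TTCNNNGAA, 10.7% held TATAAA, 5.38% held TTCNNNNGAA and 5.57% held the p53-family decamer. G and C made up 44.8% of the CLCA2 window, 40.8% of the CLCA1 window and 30.4% of the CLCA4 window, against a median of 58.0% over all windows. A match to a motif is a description of the letters and not evidence of a binding site.

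The 3 genes differed in how far they stood above the low end of the arrays. The table has no detection call, so each level was placed among the 29141 features tested and among the 2904 negative control features of the same array. All levels are log2 values made by the authors with the RMA method, and a level is set here against the distribution on its own array and not against another gene's level. The array medians lay between 5.02 and 5.06 for the tested features and between 4.12 and 4.38 for the negative controls. CLCA2 was above 65.6% to 83.1% of the tested features and above 71.2% to 85.8% of the controls. CLCA4 was near the middle, above 35.6% to 60.7% of the tested features and 50.5% to 67.7% of the controls. CLCA1 was above only 6.10% to 12.5% of the tested features and 17.3% to 26.9% of the controls, so on every array it lay below the median negative control. The pseudogene CLCA3P was also below the median negative control on every array, though higher than CLCA1, above 28.3% to 31.5% of the controls.

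CLCA2 was the member with the widest range. In mock-treated shSCR cells its log2 level was 6.05 on array A and 5.96 on array B, and in IL-13-treated shSCR cells it was 5.82 and 5.84. In mock-treated knockdown cells it was 7.11 and 7.40, and in IL-13-treated knockdown cells 6.79 and 6.53. Within each treatment both knockdown arrays were above both shSCR arrays. Such a separation, in either direction, held for 41.2% of all features without IL-13 and 36.4% with it. Within each construct both IL-13-treated arrays were below both mock-treated arrays, which in one direction or the other held for 9.91% of all features. Apart from the separation among IL-13-treated cells, these orders use the mock-treated arrays on which CLCA2 was chosen. The group means ± SD (n = 2 each) were 6.0 ± 0.06 in mock-treated and 5.83 ± 0.01 in IL-13-treated shSCR cells, 7.26 ± 0.21 in mock-treated and 6.66 ± 0.19 in IL-13-treated knockdown cells. From the highest to the lowest the groups ran knockdown mock, knockdown with IL-13, shSCR mock and shSCR with IL-13. The shSCR groups lay only 0.17 apart, close to the pooled SD within groups of 0.14, and the other neighbours in this order by more than 3 times that SD.

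CLCA4 varied less between groups and more between arrays of a group. Its log2 level was 5.09 and 4.67 in mock-treated shSCR cells, 4.48 and 4.34 in IL-13-treated shSCR cells, 5.10 and 5.54 in mock-treated knockdown cells, and 4.34 and 4.75 in IL-13-treated knockdown cells. The mock-treated arrays were above the IL-13-treated arrays within each construct, an order that held in one direction or the other for 9.91% of all features. The shSCR and knockdown arrays overlapped among the IL-13-treated cells. The group means ± SD (n = 2 each) were 4.88 ± 0.30, 4.41 ± 0.10, 5.32 ± 0.32 and 4.55 ± 0.29 in the same order, and the pooled SD within groups was 0.27 for CLCA4 against 0.14 for CLCA2 and 0.12 for CLCA1. Of neighbours in the order of the CLCA4 means, the IL-13-treated groups lay 0.14 apart, within that spread.

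CLCA1 stayed at the bottom of the scale on every array. Its log2 level was 2.46 and 2.63 in mock-treated shSCR cells, 2.63 and 2.90 in IL-13-treated shSCR cells, 2.69 and 2.57 in mock-treated knockdown cells, and 2.59 and 2.58 in IL-13-treated knockdown cells. The 4 group means spanned 0.22 on the log2 scale, beside 0.91 for CLCA4, 1.43 for CLCA2 and 0.18 for CLCA3P.

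**Figure D1:**
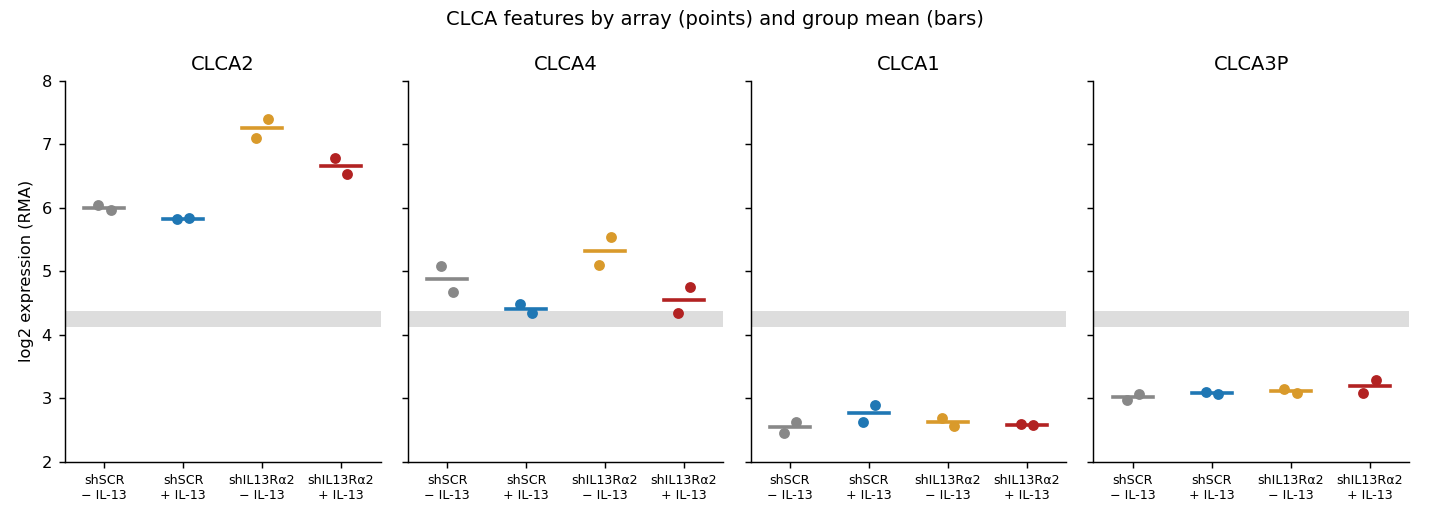
Log2 RMA expression of CLCA2, CLCA4, CLCA1 and the pseudogene CLCA3P on each of the 8 arrays (points) with the mean of each group of 2 arrays (bars); the grey band spans the array medians of the negative control features, 4.12 to 4.38. The CLCA2 arrays of knockdown cells lie above those of shSCR cells, CLCA4 lies near or above the band, and CLCA1 and CLCA3P lie below it on every array.

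The first comparison asks what depletion of IL13Rα2 does to these genes without added cytokine. CLCA2 was higher in knockdown cells by 1.25 (SE 0.14) on the log2 scale, which is 2.39-fold. This is the contrast that led to its choice, so the value is a description. In the same contrast CLCA4 differed by 0.44 (SE 0.21) and CLCA1 by 0.09 (SE 0.13). For CLCA2 and CLCA4 knockdown and shSCR arrays were separate without overlap, as for 41.2% of all features tested. Of all features, 0.0652% passed an adjusted p of 0.05 with a change of over 2-fold in this contrast, and 9.51% had an unadjusted p under 0.05.

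The IL13RA2 transcript checks the labels. Its log2 level was 8.07 and 8.09 in mock-treated shSCR cells and 6.52 and 6.34 in mock-treated knockdown cells, so that it fell by 1.65 (limma adjusted p = 0.0105). IL-13 itself raised IL13RA2, by 1.51 on average over both constructs (limma, adjusted p = 0.000471), so that knockdown cells with IL-13, at 8.23 and 8.15, were back at the level of mock-treated shSCR cells. The hairpin group with IL-13 is therefore low in the transcript only relative to shSCR cells with IL-13, at 9.36 and 9.33.

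Among IL-13-treated cells, on arrays that played no part in its choice, CLCA2 was again higher with the knockdown. The difference was 0.83 (SE 0.14, 95% interval 0.50 to 1.16), or 1.78-fold, and both knockdown arrays were above both shSCR arrays. By limma it ranked 69 of 29141 features by p, with an adjusted p = 0.164, so CLCA2 was not called. With limma on the 4 arrays of this comparison alone, which leaves out the arrays of its choice altogether, the adjusted p was 0.485. CLCA4 differed by 0.14 (95% interval -0.35 to 0.63; limma adjusted p = 0.936) and its arrays overlapped. CLCA1 differed by -0.18 (95% interval -0.48 to 0.12; limma adjusted p = 0.84), with both knockdown arrays below both shSCR arrays, at a level below the median negative control. Thus 0 of the 3 genes were called by limma, beside 0.0515% of all features, and 1 of the 3 had an unadjusted p under 0.05, beside 7.07% of all features. The arrays did not overlap for 2 of the 3, beside 36.4% of all features. Whether the CLCA2 difference was smaller with IL-13 than without was not tested, since that comparison would use the arrays on which the gene was chosen. In bulk RNA a change in the number of CLCA2-expressing cells and a change in the RNA per cell cannot be told apart.

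IL-13 went with lower, not higher, levels of CLCA2 and CLCA4. Averaged over both constructs, CLCA4 differed by -0.62 (SE 0.15, 95% interval -0.97 to -0.27), a 1.54-fold lower level, with a limma adjusted p = 0.275 (rank 365 of 29141 by p). CLCA2 differed by -0.38 (SE 0.10, 95% interval -0.61 to -0.15), a 1.30-fold lower level, with a limma adjusted p = 0.31 (rank 473 of 29141 by p). Neither was called. For CLCA4 the treated arrays lay below the mock arrays within each construct, which held in one direction or the other for 9.91% of all features. CLCA2 had the same order, which is only a description because it uses the mock-treated arrays on which the gene was chosen. CLCA1, the airway target, differed by 0.09 (95% interval -0.12 to 0.30; limma adjusted p = 0.837). Its feature lay below the median negative control on every array, so this interval sets no bound on a change of the transcript. By limma 0 of the 3 genes were called in this comparison, beside 0.0927% of all features, and 2 of the 3 had an unadjusted p under 0.05, beside 8.73%.

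Within each construct the same order was seen for CLCA4. IL-13 went with a difference of -0.47 in shSCR cells (95% interval -0.96 to 0.02; limma adjusted p = 0.754) and of -0.77 in knockdown cells (95% interval -1.27 to -0.28; limma adjusted p = 0.506). For CLCA2 the corresponding values, given as a description, were -0.17 (SE 0.14) in shSCR cells and -0.60 (SE 0.14) in knockdown cells. For CLCA1 they were 0.22 (95% interval -0.08 to 0.52; limma adjusted p = 0.806) and -0.04 (95% interval -0.34 to 0.25; limma adjusted p = 0.969). Of the 2 genes tested here, 0 were called by limma in either construct, beside 0.0583% of all features in shSCR cells and 0.0618% in knockdown cells. An unadjusted p under 0.05 was reached by 0 of the 2 in shSCR cells and 1 of the 2 in knockdown cells, beside 6.79% and 6.93% of all features. The arrays did not overlap for CLCA4 in either construct and for CLCA1 in shSCR cells only, beside 36.7% of all features in shSCR cells and 37.4% in knockdown cells. Whether the constructs differed in these effects was not tested. Against mock-treated shSCR cells, knockdown cells with IL-13 differed by 0.66 for CLCA2, -0.33 for CLCA4 and 0.04 for CLCA1, again as a description.

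**Figure D2:**
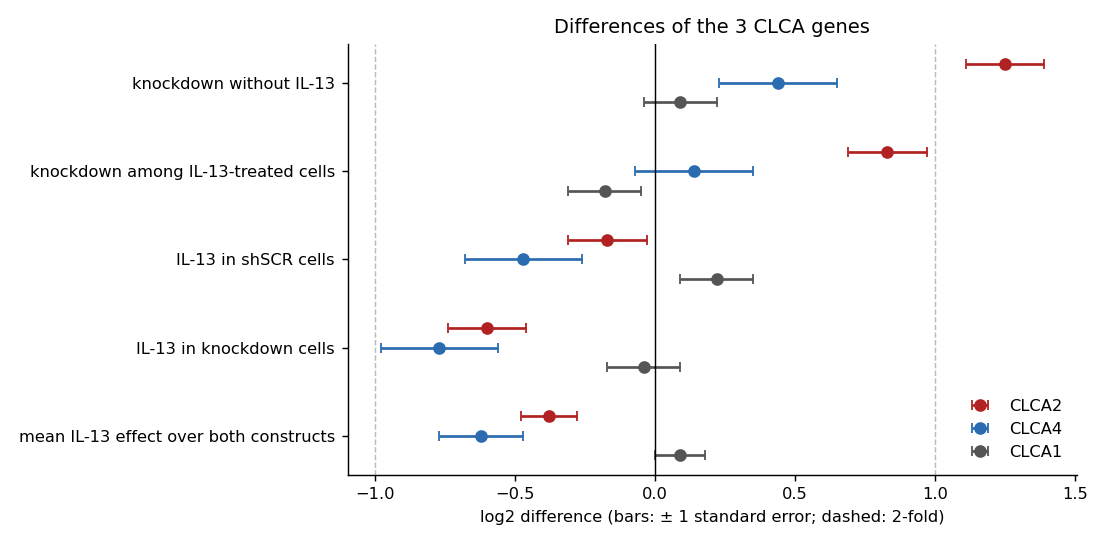
Log2 differences of CLCA2, CLCA4 and CLCA1 in 5 comparisons, with bars of ± 1 standard error from the limma fit over 8 arrays and dashed lines at a 2-fold change. CLCA2 is higher with the knockdown in both treatments (1.25 and 0.83), CLCA2 and CLCA4 are lower with IL-13 (-0.38 and -0.62 on average), and CLCA1 stays within 0.22 of 0.

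The cells did respond to IL-13, as other genes of the airway IL-13 response show. Of 21 such genes other than CLCA1, 20 had a feature in the table used. Over both constructs 3 of the 20 were called up by limma and 0 down, with a median difference of 0.03 beside 0.01 over all features. SERPINB4 and SERPINB3, serine protease inhibitors of squamous epithelium, rose by 4.17 and 3.58 (limma adjusted p = 1.19e-05 and 4.53e-06), and CCL26, the chemokine eotaxin-3, rose by 1.27 (limma adjusted p = 0.0032). In shSCR cells the same 3 genes were called, and in knockdown cells only the serpins, while CCL26 differed there by 0.85 (limma adjusted p = 0.187). In the knockdown comparisons 0 of the 20 were called. At an unadjusted p under 0.05 there were 3 up and 1 down without IL-13, and 0 up and 1 down with it. The shares over all features were 9.51% and 7.07%. Without IL-13 these were SERPINB4 (1.01), SERPINB3 (0.78), CCL11 (0.50) and, lower, CST1 (-0.68). With IL-13 it was CCL26, at -0.94 (limma adjusted p = 0.128). CLCA1 was not among the airway genes called in these breast carcinoma cells.

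Markers of goblet cells, the cells that make CLCA1 in the airway, were measured beside it. The 7 goblet and secretory markers in the table had group medians of 5.00 to 5.14, all 7 above the median negative control, and SPDEF, a transcription factor of goblet cells, lay between 4.92 and 5.04. AGR2, a disulfide isomerase of mucus-secreting cells that luminal breast cells also make, fell by 1.29 with IL-13 over both constructs (limma adjusted p = 0.00174). Basal markers had group medians of 7.10 to 7.18 and luminal markers of 7.57 to 7.84, with all 8 basal and 6 or 7 of the 8 luminal genes above the median negative control. For IL-13 over both constructs 2 of the 10 basal features were above 0 and 8 below, and 4 luminal features above and 7 below. With the knockdown the basal features were 3 above 0 and 7 below without IL-13, and 6 above and 4 below among IL-13-treated cells. The luminal features went both ways with the knockdown, 4 above 0 and 7 below without IL-13. Among IL-13-treated cells 5 were above 0 and 6 below. The 2 features of the luminal keratin KRT18 differed by -0.38 and -0.64 without IL-13 (limma adjusted p = 0.471 and 0.217). Among IL-13-treated cells the latter feature differed by -0.56 (limma adjusted p = 0.349). The former had means there of 8.47 in shSCR and 8.23 in knockdown cells. The luminal marker GATA3 was higher by 0.38 in that comparison (limma adjusted p = 0.513). The part of these markers in the CLCA2 result was not tested. Markers of immune cells, fibroblasts and endothelium had group medians of 4.60 to 4.79, 4.56 to 4.71 and 4.19 to 4.38. Above the median negative control were 3 to 5 of the 6 immune, 5 of the 6 fibroblast and 3 or 4 of the 6 endothelial markers. Of the immune markers, PTPRC was at 2.39 to 2.62 and CD68 at 6.72 to 7.26. The adhesion molecule PECAM1 was the highest of the endothelial markers. Its group means were 8.20, 7.77, 8.82 and 8.21 in the order shSCR mock, shSCR with IL-13, knockdown mock and knockdown with IL-13. The highest and the lowest group were thus the same as for CLCA2. Of the other endothelial markers, CLDN5 was at 5.62 to 5.96 and VWF at 3.81 to 3.90. The part of such markers in the CLCA2 result was not tested.

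Because CLCA2 is known as a p63 target, its profile was set beside TP63, the gene of p63. The log2 level of TP63 was 5.06 and 4.87 in mock-treated shSCR cells, 6.11 and 6.0 in IL-13-treated shSCR cells, 6.11 and 6.20 in mock-treated knockdown cells, and 6.98 and 6.50 in IL-13-treated knockdown cells. TP63 was higher in every knockdown array than in either shSCR array of the same treatment, as CLCA2 was. Such a separation, in either direction, held for 41.2% of all features without IL-13 and 36.4% with it. The TP63 differences were 1.19 without IL-13 and 0.69 with it (limma adjusted p = 0.0996 and 0.377), and neither was called. With IL-13, however, TP63 was higher, by 0.84 over both constructs (limma adjusted p = 0.0463, below the 2-fold threshold), where CLCA2 was lower by 0.38. Mock-treated knockdown cells and IL-13-treated shSCR cells had nearly the same TP63 mean, 6.15 and 6.05. Their CLCA2 means were 7.26 and 5.83, the highest and the lowest of the 4 groups. The first of these CLCA2 means belongs to the contrast on which the gene was chosen. Whether p63 had a part in the CLCA2 differences was not tested.

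The other p63 targets were split between higher and lower values, with 9 higher and 10 lower with the knockdown among IL-13-treated cells. Of 19 targets apart from CLCA2, limma called 0 in any of the 5 comparisons. At an unadjusted p under 0.05 there were 2 up and 2 down with the knockdown without IL-13, 2 up and 2 down with the knockdown among IL-13-treated cells, 2 up and 2 down for IL-13 over both constructs, 1 up and 1 down for IL-13 in shSCR cells, and 0 up and 1 down for IL-13 in knockdown cells. Over all features the shares in either direction were 9.51%, 7.07%, 8.73%, 6.79% and 6.93% in the same order. The medians of the list were 0.01, -0.04, 0.03, 0.05 and -0.03, beside -0.01, 0.00, 0.01, 0.00 and 0.02 over all features. Among IL-13-treated cells the values with the knockdown were 0.40 for the desmosomal cadherin DSC3, 0.36 for the cytoskeletal linker DST and -0.39 for the integrin ITGA3, with limma adjusted p-values of 0.451, 0.474 and 0.476. These 3 had the same sign without IL-13, at 0.32, 0.57 and -0.58.

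Targets of p53, the other known regulator of CLCA2, were not called either. Of 23 apart from CLCA2, limma called 0 in any of the 5 comparisons, with 1 up and 3 down at an unadjusted p under 0.05 for the knockdown without IL-13 and 0 up and 6 down for the knockdown among IL-13-treated cells, beside 9.51% and 7.07% of all features in either direction. For IL-13 the counts were 2 up and 1 down over both constructs, 1 up and 1 down in shSCR cells and 0 up and 2 down in knockdown cells, beside 8.73%, 6.79% and 6.93% of all features. With the knockdown among IL-13-treated cells 5 of the 23 values were above 0 and 18 below. The list medians were -0.09 and -0.06 for the knockdown without and with IL-13, and 0.00 for IL-13 over both constructs. The 6 lower values among IL-13-treated cells were those of DDB2 (-0.52), ZMAT3 (-0.40), CDKN1A (-0.36), TIGAR (listed as C12orf5, -0.36), TP53I3 (-0.32) and RRM2B (-0.26), where CLCA2 was higher by 0.83. CDKN1A encodes the cell cycle inhibitor p21, DDB2 a DNA damage sensor and RRM2B a subunit of ribonucleotide reductase. None of the 6 passed the adjusted threshold (limma adjusted p = 0.53 to 0.703).

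Chloride channels and transporters with which CLCA proteins are discussed were not called. Of 20 such genes, limma called 0 in any of the 5 comparisons. ANO1, the channel that CLCA1 stabilizes, had group means of 5.09 and 5.14 in shSCR cells and 4.74 and 4.54 in knockdown cells, mock-treated and IL-13-treated in that order. Its knockdown difference among IL-13-treated cells was -0.60 (limma adjusted p = 0.349), in the opposite direction to CLCA2. SLC12A2, a cotransporter that loads epithelial cells with chloride, differed by 0.30 in the same comparison (limma adjusted p = 0.631). CFTR, the chloride channel altered in cystic fibrosis, had means of 2.71 to 2.90, below the median negative control. At an unadjusted p under 0.05 the list held 1 up and 1 down for the knockdown without IL-13, 2 up and 1 down for the knockdown with it, 1 up and 0 down for IL-13 over both constructs, and 0 for IL-13 within either construct, beside 9.51%, 7.07%, 8.73%, 6.79% and 6.93% of all features.

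Genes linked to the CLCA2 protein through binding or epithelial differentiation showed no difference past an unadjusted p of 0.05. The 8 genes were ITGB4 and ITGA6, the integrin chains of the hemidesmosome, PTK2 (focal adhesion kinase), MPZL2 (the junction protein EVA1), STIM1 and ORAI1 (store-operated calcium entry), CDH1 (E-cadherin) and ZEB1 (its repressor). Their medians in the 5 comparisons lay between -0.12 and 0.08. Integrin β4 was expressed with ITGB4 means of 6.01 to 6.34, and ITGA6 had means of 12.05 to 12.20.

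**Figure D3:**
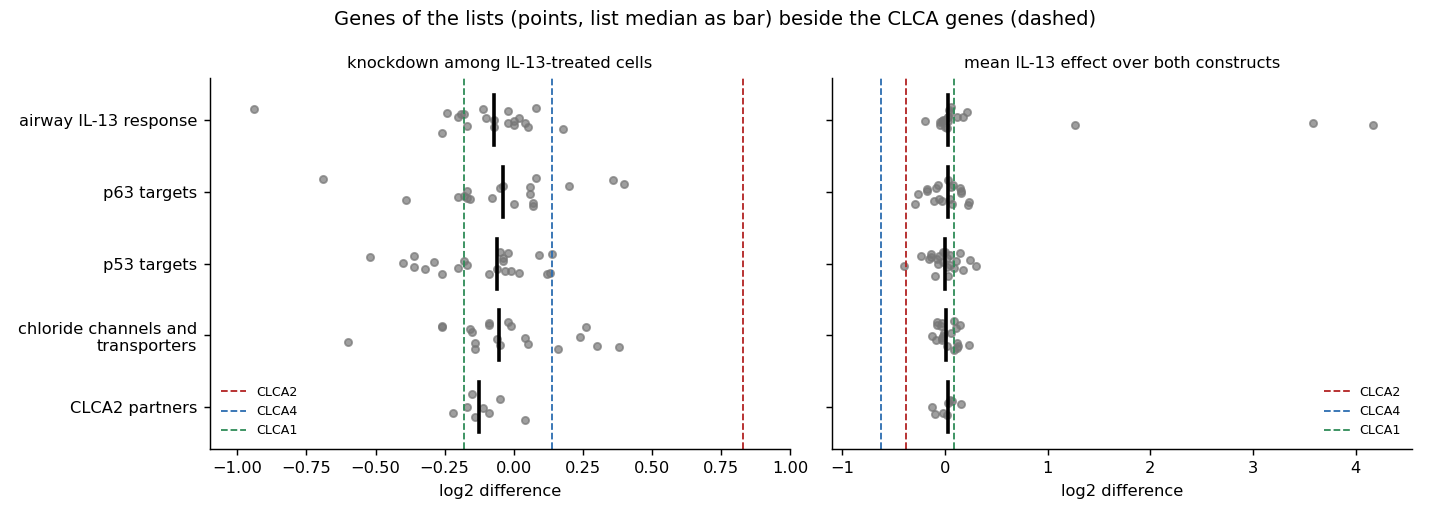
Log2 differences of the genes of 5 lists (grey points, the list median as a black bar) for the knockdown among IL-13-treated cells (left) and for IL-13 averaged over both constructs (right), with the values of the 3 CLCA genes as dashed lines; the vertical scatter only separates points. CLCA2 at 0.83 lies to the right of all list genes on the left, and CLCA4 at -0.62 to the left of all list genes on the right, where SERPINB4, SERPINB3 and CCL26 stand at 4.17, 3.58 and 1.27.

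The genes beside the cluster were examined to see whether the CLCA2 difference was shared along the chromosome. The nearest 5 measured genes on each side were DDAH1, CYR61 (now CCN1), ZNHIT6, COL24A1 and ODF2L before CLCA2, and SH3GLB1, HS2ST1, LMO4, PKN2 and GTF2B after CLCA3P. With the knockdown among IL-13-treated cells their differences ran from -0.12 (CYR61) to 0.23 (DDAH1), against 0.83 for CLCA2. Without IL-13 they ran from -0.29 (GTF2B) to 0.42 (CYR61), against 1.25. DDAH1, CYR61, ZNHIT6, COL24A1, ODF2L, SH3GLB1 and HS2ST1 were higher with the knockdown there, by at least 0.18 (COL24A1). LMO4, PKN2 and GTF2B were lower. Limma called none of the 10 in these comparisons. The closest of them to CLCA2 was ODF2L, which encodes a centrosomal protein. With the knockdown ODF2L differed by 0.03 among IL-13-treated cells and by 0.27 without IL-13 (limma adjusted p = 0.52).

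With IL-13, ODF2L gave values near those of CLCA2. Its group means were 6.67 and 6.39 in shSCR cells and 6.94 and 6.42 in knockdown cells, without and with IL-13. The difference over both constructs was -0.40 (95% interval -0.58 to -0.21; limma adjusted p = 0.175), and its treated arrays lay below the mock arrays in each construct. That order, in one direction or the other, held for 9.91% of all features. ODF2L, CLCA2 and CLCA4 were thus lower with IL-13 by 0.40, 0.38 and 0.62, while CLCA1, between the last pair on the chromosome, differed by 0.09 at a level below the control median. The remaining neighbours ran from -0.19 (CYR61) to 0.10 (ZNHIT6 and LMO4). CLCA3P differed by 0.07, and by 0.11 with the knockdown among IL-13-treated cells.

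**Figure D4:**
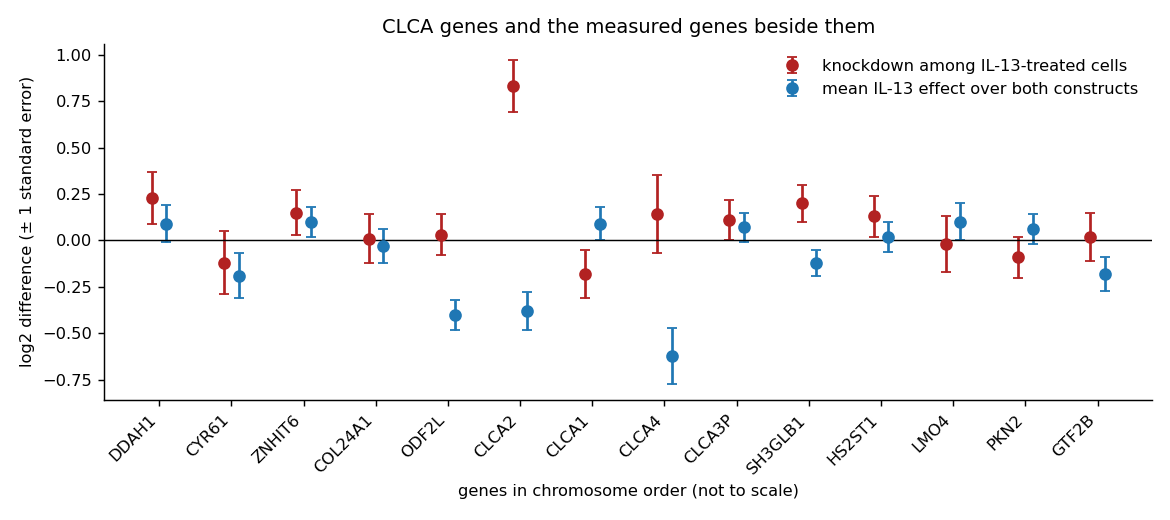
Log2 differences (± 1 standard error) of the CLCA genes and the 5 measured genes on each side in their order on chromosome 1, not to scale, for the knockdown among IL-13-treated cells (red) and the mean effect of IL-13 (blue). In red CLCA2 stands at 0.83 above all neighbours, and in blue ODF2L, CLCA2 and CLCA4 stand at -0.40, -0.38 and -0.62.

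CLCA2 was the one member whose group means spanned at least 1 on the log2 scale, and 139 genes had means that spanned as much. Among these, likeness to CLCA2 was measured by Pearson's r over the 8 arrays. The arrays form 4 groups, so r mainly follows the 4 group means, and it is given as a description. The span of CLCA2 reached 1 only through mock-treated knockdown cells, at 7.26, a group of the contrast on which it was chosen. Its other means were 6.0, 5.83 and 6.66. An extreme value in that group that other genes share with CLCA2 thus follows in part from the choice. The most alike were CEACAM5 (r = 0.97), PLCB1 (0.97), ZNF117 (0.97), GPX2 (0.96) and CASP14 (0.96). CEACAM5 is a cell adhesion glycoprotein, PLCB1 a phospholipase C, ZNF117 a zinc finger gene, GPX2 a glutathione peroxidase of epithelia and CASP14 the caspase of keratinocyte differentiation. When each array was left out in turn, r stayed between 0.94 and 0.99 for these 5. The study lists CEACAM5, PLCB1, GPX2 and CASP14 as higher in the contrast on which CLCA2 was chosen.

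The steps behind these profiles differed in size. CASP14 had group means of 6.18 and 4.74 in shSCR cells and 8.75 and 7.07 in knockdown cells, without and with IL-13, and CEACAM5 of 7.75, 7.13, 9.34 and 8.39. GPX2 had 5.75, 4.99, 7.37 and 6.93, PLCB1 4.78, 4.53, 6.06 and 5.57, and ZNF117 4.45, 4.35, 5.44 and 4.82. All 5 were, like CLCA2, highest in mock-treated knockdown cells and lowest in IL-13-treated shSCR cells.

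At the other end stood ARL14 (r = -0.97), MIR221 (-0.94), MYH15 (-0.93), TIMP1 (-0.89) and IL13RA2 (-0.88). ARL14 is a small GTPase, MIR221 the gene of the microRNA miR-221, MYH15 a myosin heavy chain and TIMP1 an inhibitor of metalloproteinases. The study lists ARL14 and IL13RA2 as lower in the contrast on which CLCA2 was chosen. All 5 were highest in IL-13-treated shSCR cells and lowest in mock-treated knockdown cells, as in TIMP1 with 8.47 and 8.89 in shSCR cells and 7.67 and 8.08 in knockdown cells. IL13RA2, the target of the hairpin, had means of 8.08, 9.35, 6.43 and 8.19, and its r to CLCA2 stayed between -0.93 and -0.81 when each array was left out. TP63 stood at r = 0.50 (0.41 to 0.58 without each array), rank 56 of the 139.

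**Figure D5:**
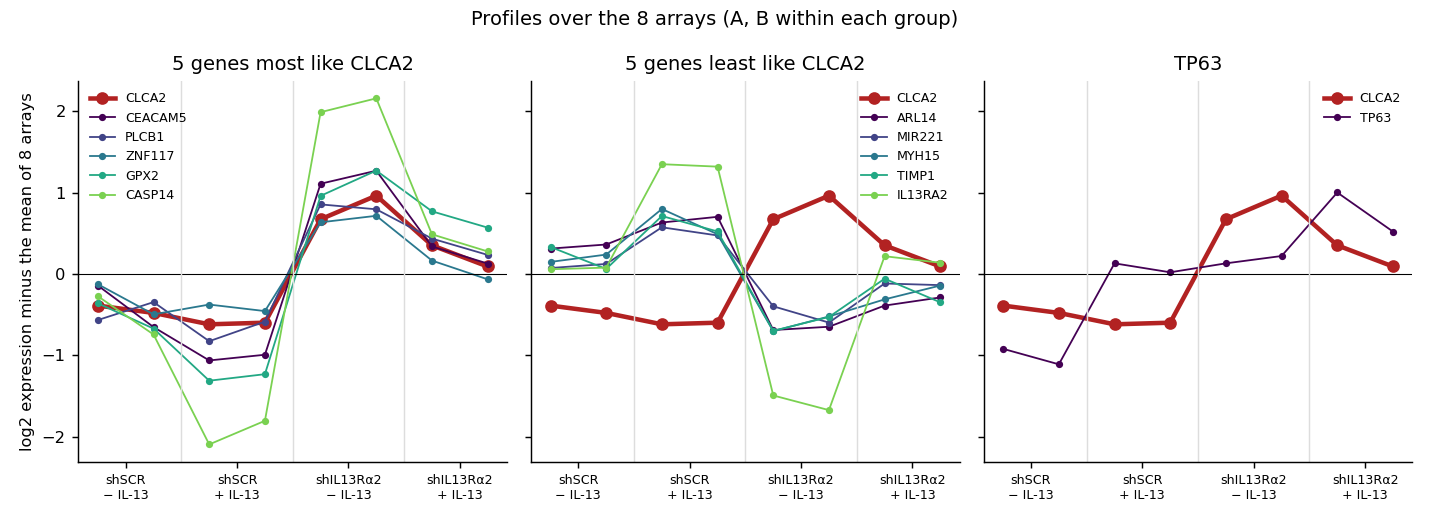
Log2 expression minus each gene's mean over the 8 arrays, for CLCA2 (red) with the 5 genes of the highest r (left), the 5 of the lowest r (middle) and TP63 (right); the arrays of each group stand side by side and lines only join points of one gene. The genes on the left are highest in mock-treated knockdown cells as CLCA2 is, those in the middle are lowest there, and TP63 is higher with IL-13 where CLCA2 is lower.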

How the data were processed

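The deposited values are on the log2 scale, 1 per gene-level feature and array, and the authors made them with RMA (background correction, quantile normalization over the arrays and a summary of each gene's probes) in Affymetrix Expression Console version 1, as the submitters' processing notes name it. No further normalization was applied. Of 33297 features, 4156 were controls or spike-ins and did not enter the tests, which took in all other 29141 whatever their signal. The column headings give construct and treatment, which placed each column in its group, and the arrays of a group were named A and B in column order. The number of arrays limits the precision.

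Means of the 4 groups were fitted over all 8 arrays in R version 4.3.3, using limma version 3.58.1 (4 residual and 3.86 prior degrees of freedom). Calls required a change of over 2-fold and p under 0.05 after Benjamini-Hochberg adjustment over the 29141 features. The procedure was tested on simulated data. Figures were drawn with matplotlib version 3.10.9 in Python version 3.11.15.

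The members and gene lists were chosen with earlier results of these data known, and the lists were written from general knowledge. Genes named are the members, list members that were called, the neighbours of the cluster, IL13RA2, TP63 and the 5 genes most and least like a member whose group means span at least 1. Other genes of the lists, and single markers, were named as examples after their values were seen. Sequences and gene coordinates are those of RefSeq (GRCh38.p14), matched by symbol, and all 3 genes matched. The build of the deposited annotation was not used for coordinates. The values of 1 gene of a list are not reported here.

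Alternatives were limma on the arrays of a comparison alone, limma without adjustment, the methods' test without and with adjustment, a 1.5-fold threshold, a filter that removes the dimmest 30% of features, arrays set to a common median, a second quantile normalization, a robust prior with an intensity trend, keeping 1 feature per gene, and leaving out each array.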

Additional observations from a re-analysis of the deposited data

How the results depend on the processing

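No tested result of the 3 genes changed its call under the alternatives run. The 2-fold threshold left little room for a change, because every tested difference was under 2-fold in the main fit. The 1.5-fold threshold was combined only with the adjusted p of the main fit, and not with the robust prior and intensity trend. The knockdown difference of CLCA2 among IL-13-treated cells was 0.82 to 0.84 under 10 alternatives and 0.70 to 0.96 when each array was left out. Its limma adjusted p was 0.0249 with a robust prior and an intensity trend, at under 2-fold, 0.485 on the 4 arrays compared alone, and 0.267 to 0.62 without each array. The methods' test with adjustment gave 0.815. The mean IL-13 difference of CLCA4 was -0.73 to -0.51 and that of CLCA2 -0.46 to -0.31 without each array. The knockdown difference of CLCA4 among IL-13-treated cells, which was not called, ran from -0.07 to 0.34. Among the values given as a description, the CLCA2 difference without IL-13 ran from 1.11 to 1.40 and its IL-13 difference in knockdown cells from -0.74 to -0.45 when each array was left out, the ends being set by mock-treated knockdown arrays A and B. Of the airway list, 1 gene was called up with the knockdown without IL-13 by limma without adjustment and with the intensity trend, and 0 were called up with IL-13 within either construct by the methods' test with adjustment. CLCA1 was removed with the dimmest 30% of features. No paired analysis was possible because the column headings number the arrays from first to last and do not give the sample numbers of the labels.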
